A study of Mus musculus with 2 samples.

Results

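The Slc25 genes encode the mitochondrial carriers. They were taken as every protein-coding gene in the gene tables of both libraries whose GENCODE symbol is Slc25a followed by a number. This rule gave 47 genes of 21474 protein-coding genes and 43346 endogenous genes. Total RNA longer than 200 nucleotides was sequenced from liver of adult C57BL/6J mice at 8 weeks of age, in 2 libraries numbered as biological replicates 1 and 2. Both libraries belong to 1 group, sex was not collected, and spike-in RNAs were added. The libraries have separate biosample identifiers but the same donor identifier, and the labels do not say whether they came from separate animals, so the spread between them may be technical. With 1 group there is no comparison between conditions, and no test was made. The ratios below compare 2 libraries and have no replicate check.

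Mitochondrial carriers are small proteins of the inner mitochondrial membrane that exchange solutes between the matrix and the space outside it. Each protein is built from 3 repeats of a similar stretch, and each repeat carries a short signature that begins with a proline. In liver, carriers bring ADP and phosphate to the ATP synthase, move citrate out for lipid synthesis, pass amino acids for the urea cycle, and take acylcarnitines in for fatty acid oxidation. The uncoupling proteins and the Mtch proteins are relatives that carry other symbols and are no members here.

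The libraries held 83816487 expected counts of endogenous genes in replicate 1 and 71068191 in replicate 2. Hepatocyte markers were high in both, with albumin at 6978 TPM in replicate 1 and 11030 TPM in replicate 2. TPM is an abundance per transcript length, here rescaled to 1000000 over all endogenous genes. Markers of other tissues differed between the libraries. Summed TPM of 8 pancreatic acinar genes was 125 and 43.5 in replicates 1 and 2, that of 8 skeletal muscle genes was 6.03 and 0.261, and that of 6 adrenal cortex genes was 0.181 and 13.8. Of these genes, 8 of 8 acinar, 0 of 8 muscle and 0 of 6 adrenal genes reached 1 TPM in both libraries, as did 31% of all protein-coding genes. Some reached it in 1 library. In replicate 2 these were the adrenal genes Hsd3b1 (5.10 TPM), Star (3.89), Cyp11b1 (1.94) and Cyp21a1 (1.93). In replicate 1 these were the muscle genes Acta1 (1.74 TPM) and Ckm (1.13). Erythroid markers summed to 116 and 236 TPM, brown fat markers to 1.36 and 0.341 TPM, and cholangiocyte markers to 5.03 and 5.10 TPM. The brown fat sum was mostly Elovl3, at 1.23 and 0.131 TPM. Ucp1 (0.0903 and 0.121 TPM) and Cidea (0.0301 and 0.0904 TPM) were low and went the other way. Kupffer cell markers gave 46.0 and 49.9 TPM, endothelial markers 27.7 and 35.5 TPM, and stellate cell markers 28.9 and 45.2 TPM. TPM in replicate 2 was a median of 1.42 times replicate 1 over all genes that passed the ratio filter below. On the log2 ratio defined below, positive where replicate 1 is higher, the median was -0.10 for hepatocyte and 0.42 for Kupffer markers. It was 0.054 for endothelial and -0.32 for stellate markers, and 0.52 for the 1 measured cholangiocyte marker. In bulk tissue, fewer cells of a type and less RNA per cell cannot be told apart.

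The signature that defines the family was read from the coding sequence of each gene's most abundant protein-coding transcript with a start codon and at least 600 coding bases. In Slc25a23 a shorter coding transcript was more abundant and was passed over. It was searched as a proline, any residue, an acidic residue, any 2 residues and a basic residue, which is 6 codons or 18 bases. All 47 genes had a coding sequence, between 265 and 677 codons long. The signature occurred 3 times in 27 genes, 2 times in 12, once in 5 and not at all in 3, namely Slc25a51, Slc25a46 and Slc25a53. Thus 57.4% of the carriers had 3 matches or more, against 0.661% of 10445 other protein-coding genes with coding sequences in the same range of lengths. Because the signature defines the family, this difference was set in advance and is only a description. For the other genes only the most abundant coding transcript was read, and relatives with other symbols were not taken out. In the 27 genes with 3 matches, neighbouring matches lay a median of 98 codons apart, and 46 of 54 spacings lay between 90 and 110 codons. Slc25a13 and Slc25a12, the aspartate/glutamate carriers, had all their matches in the later part of a longer coding sequence. No match says only that these letters are not in the sequence read here.

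**Figure D1:**
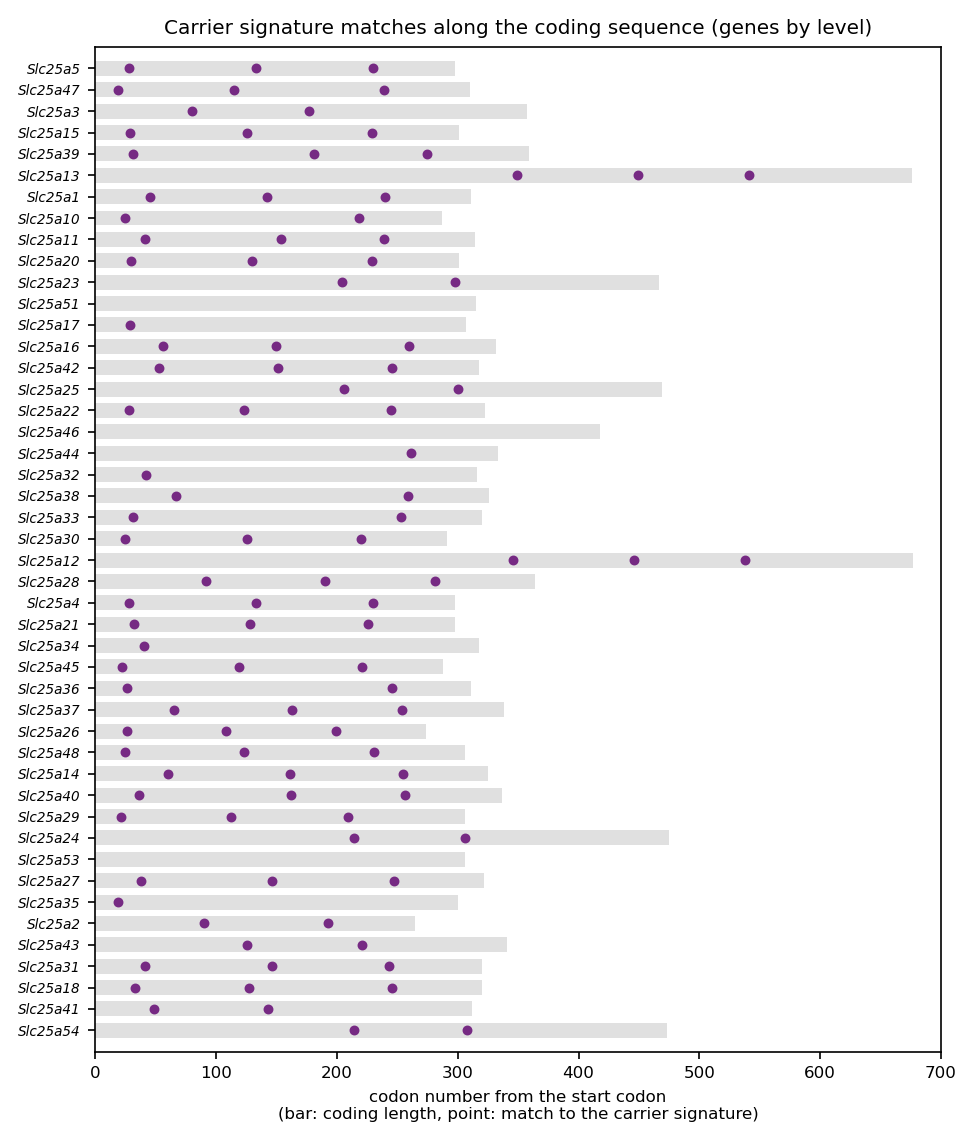
Position of signature matches along the coding sequence of the carriers reported here, ordered by level in liver from top to bottom. Grey bars run over the coding length in codons and points mark matches: most genes have 3 points, and the points of Slc25a13 and Slc25a12 lie in the later part of long bars.

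The coding bases of the signature are shown for the highest carrier, Slc25a5, for its paralog Slc25a4, and for Slc25a47, the second highest. Slc25a5 and Slc25a4 encode ADP/ATP exchangers that bring ADP into the matrix and ATP out of it. Capitals mark the codons of the proline, the acidic residue and the basic residue, and the sequences are GENCODE M21 transcripts on GRCm38. In Slc25a5 (plus strand) the matches lie at chrX:36795812-36795829, chrX:36797128-36797145 and chrX:36797825-36797842. In Slc25a4 (minus strand) they lie at chr8:46210824-46210841, chr8:46209206-46209223 and chr8:46208432-46208449. In Slc25a47 (plus strand) they lie at chr12:108853375-108853392, chr12:108855309-108855326 and chr12:108856001-108856018. All lie in coding exons.
Slc25a5 match 1: CCCatcGAGagggtcAAG
Slc25a5 match 2: CCTcttGATtttgccCGT
Slc25a5 match 3: CCTtttGACacggttCGC
Slc25a4 match 1: CCGatcGAGagggtcAAA
Slc25a4 match 2: CCGctgGACtttgctAGG
Slc25a4 match 3: CCGtttGACactgttCGT
Slc25a47 match 1: CCTctgGATacagtgAAG
Slc25a47 match 2: CCCactGAGgtggccAAA
Slc25a47 match 3: CCCatgGATgtgatcAAG
The matches of Slc25a5 and Slc25a4 begin at the same codons, 28, 133 and 230, and differ in 2, 6 and 3 of 18 bases. Over the whole coding sequence of 894 bases the genes were 77.4% identical. The posterior SD of a gene's count, which is large where reads match several genes, was at most 0.198% of the count in the carriers with counts.

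Liver RNA held most carriers, but a few genes made up most of the carrier RNA. At 1 TPM or more in both libraries stood 29 of 47 carriers, or 61.7%, against 31% of all protein-coding genes. Of these, 10 reached 10 TPM in both libraries and 19 did not. The family summed to 359 TPM in replicate 1 and 541 TPM in replicate 2, which was 0.295% and 0.331% of the TPM of protein-coding genes (mean 0.313% ± 0.0255, SD, n = 2). Genes of the annotated class misc_RNA held 74.7% of endogenous TPM in replicate 1 and 72.1% in replicate 2, and protein-coding genes 12.2% and 16.4%. Of all endogenous TPM the family held 0.0450% ± 0.0128 (SD, n = 2). The 2 highest genes held 40.7% ± 1.46 of the family's TPM, the 5 highest 61.2% ± 0.603 and the 10 highest 82.1% ± 0.675 (SD, n = 2 each). The same 10 genes were highest in both libraries.

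**Figure D2:**
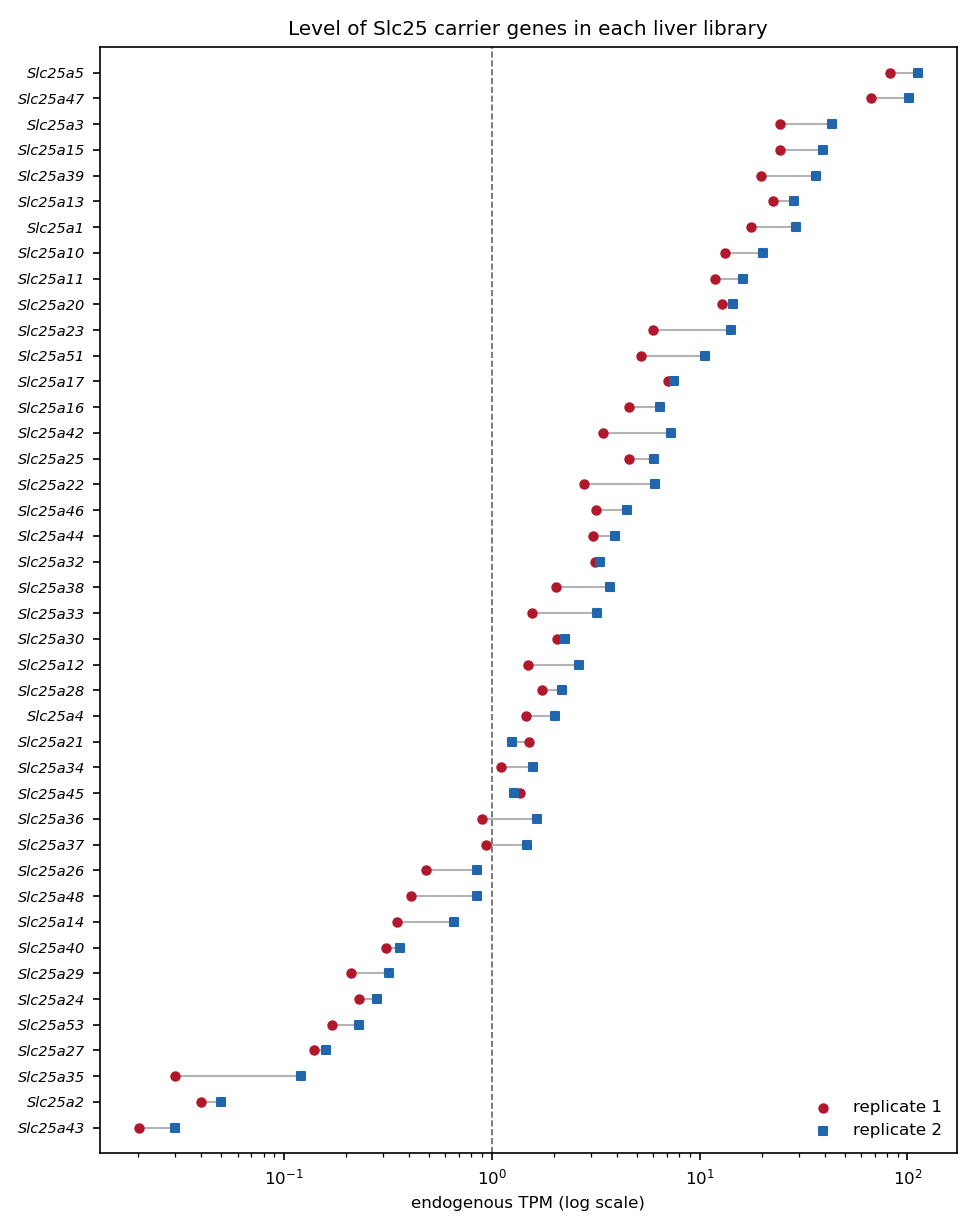
Level of each carrier reported here, in endogenous TPM on a log axis, replicate 1 as circles and replicate 2 as squares, with a dashed line at 1 TPM. Slc25a5 and Slc25a47 stand apart at the top, and the genes from Slc25a26 down have a mean under 1 TPM; the 3 genes with 0 counts and Slc25a31, listed at 0 TPM in replicate 1, are not drawn.

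Carriers of ATP, ADP and phosphate held 33.1% ± 0.182 of the family's TPM (SD, n = 2), the largest share of the role groups. Slc25a5 (ENSMUSG00000016319.3, chrX:36795651-36798807) was at 82.8 TPM in replicate 1 and 112 TPM in replicate 2, from 26737 and 23429 counts. It alone held 23.0% and 20.8% of the family's TPM. The other exchanger, Slc25a4 (ENSMUSG00000031633.4, chr8:46206797-46211284), known as the main form in heart and skeletal muscle, was at 1.47 and 2.02 TPM, from 649 and 535 counts. Slc25a5 thus stood 56.5 times above Slc25a4 in replicate 1 and 55.7 times above it in replicate 2, on the TPM scale. When only coding transcripts were summed, an alternative chosen after seeing the data, it stood 106 and 148 times above. Slc25a31, the exchanger known from testis, had 2 and 4 counts.

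Slc25a3 (chr10:91116574-91124059), the phosphate carrier that supplies the ATP synthase, was at 24.3 and 43.3 TPM. The ATP-Mg/phosphate carriers, which are regulated by calcium and adjust the adenine nucleotide content of the matrix, were lower. Slc25a23 was at 5.99 and 14.2 TPM and Slc25a25 at 4.58 and 6.02 TPM. Slc25a24 was at 0.231 and 0.281 TPM, so that Slc25a25 stood 19.8 and 21.4 times above it on the TPM scale. Slc25a41, which lies 2056 bases from Slc25a23 on chromosome 17, had 0 counts in both libraries.

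Carriers of di- and tricarboxylates held 12.3% ± 0.0170 of the family's TPM (SD, n = 2), and all 4 were at 1 TPM or more in both libraries. Slc25a1, the citrate carrier whose export of citrate feeds fatty acid and sterol synthesis, was at 17.7 and 29.0 TPM. Slc25a10, the dicarboxylate carrier, was at 13.2 and 20.3 TPM, and Slc25a11, the oxoglutarate/malate carrier of the malate-aspartate shuttle, at 11.9 and 16.2 TPM. These 3 genes lay within a narrow band in each library. Slc25a21, the oxoadipate carrier, was lower, at 1.52 and 1.26 TPM.

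Carriers of amino acids, glutathione and acylcarnitines held 25.0% ± 0.0633 of the family's TPM (SD, n = 2). Slc25a15 (chr8:22375551-22398597), the ornithine carrier of the urea cycle, was at 24.5 and 39.1 TPM. Its paralog Slc25a2 was at 0.0401 and 0.0502 TPM, from 15 and 12 counts. Slc25a13, the liver form of the aspartate/glutamate carrier (citrin), was at 22.7 and 28.3 TPM, and Slc25a12, known as the form of brain and muscle, at 1.496 and 2.64 TPM. Slc25a13 stood 15.2 and 10.7 times above Slc25a12 on the TPM scale, and 64.3 and 59.8 times above it when only coding transcripts were summed.

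Slc25a39, a carrier needed for glutathione import into mitochondria, was at 19.8 and 36.5 TPM, against 0.311 and 0.362 TPM for its paralog Slc25a40. The ratio within the pair was 63.5 in replicate 1 and 100.9 in replicate 2. Slc25a20, the carnitine/acylcarnitine carrier of fatty acid oxidation, was at 12.9 and 14.5 TPM. Slc25a22, a glutamate carrier, was at 2.77 and 6.08 TPM, and its paralog Slc25a18 had 0 counts in both libraries. The remaining genes of the group were Slc25a44, a carrier of branched-chain amino acids, at 3.07 and 3.93 TPM, Slc25a38, the glycine carrier needed for heme synthesis, at 2.04 and 3.70 TPM, and Slc25a29, a carrier of basic amino acids, at 0.211 and 0.321 TPM.

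Carriers of coenzymes, folate and nucleotides held 7.78% ± 0.270 of the family's TPM (SD, n = 2), spread over 9 genes of which 6 were at 1 TPM or more in both libraries. Slc25a51, the NAD carrier, was at 5.21 and 10.6 TPM. Slc25a17, a carrier of peroxisomes, was at 7.02 and 7.57 TPM, Slc25a16 at 4.56 and 6.43 TPM, and Slc25a42, a coenzyme A carrier, at 3.43 and 7.26 TPM. Slc25a32, which is needed for mitochondrial folate, was at 3.13 and 3.31 TPM. The pyrimidine nucleotide carriers Slc25a33 and Slc25a36 were nearer to each other than most pairs, at 1.57 and 3.22 TPM for Slc25a33 and 0.903 and 1.65 TPM for Slc25a36. Slc25a26, the S-adenosylmethionine carrier, was at 0.482 and 0.854 TPM.

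The iron carriers (mitoferrins) held 0.715% ± 0.0522 of the family's TPM (SD, n = 2). Slc25a28, the mitoferrin of most tissues, was at 1.76 and 2.19 TPM, and Slc25a37, the mitoferrin of red cell precursors, at 0.944 and 1.48 TPM. The ratio within the pair was 1.86 and 1.48 on the TPM scale, and 3.65 and 3.63 over coding transcripts. By counts, which are not scaled to length, the order was reversed, with 722 and 579 for Slc25a28 and 1439 and 1478 for Slc25a37. Erythroid markers summed to 116 TPM in replicate 1 and 236 TPM in replicate 2, with Slc4a1 at 17 and 9 counts, and their part in the level of Slc25a37 was not tested. The uncoupling protein-like group was led by Slc25a30, at 2.07 and 2.26 TPM, and Slc25a14 was at 0.351 and 0.663 TPM. Slc25a46, which sits in the outer membrane and acts in mitochondrial dynamics, was at 3.17 and 4.49 TPM. Among the relatives outside the rule, Mtch2 was at 20.4 and 28.0 TPM, Mtch1 at 6.96 and 11.9 TPM and Ucp2 at 1.20 and 2.82 TPM. Ucp1 had 39 and 36 counts and Ucp3 had 2 and 1 counts.

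Slc25a47 (ENSMUSG00000048856.8, chr12:108836046-108856815), a carrier known for its expression in liver, was at 67.1 TPM in replicate 1 and 102 TPM in replicate 2. It was assigned to no role group because its substrate was not taken as settled, and it held 18.7% and 18.9% of the family's TPM. By counts it was the highest carrier, with 28905 and 28276, against 26737 and 23429 for Slc25a5. Of the other 7 genes without a listed substrate, Slc25a34 and Slc25a45 were at 1 TPM or more in both libraries.

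Slc25a29 lies 162 bases from Slc25a47 on the opposite strand of chromosome 12, but the leading transcripts begin 15246 bases apart. Their levels lay far from each other, at 67.1 and 102 TPM for Slc25a47 and 0.211 and 0.321 TPM for Slc25a29. The promoter windows of these neighbours are shown because the windows also differ in CG dinucleotides, which are in capitals. They run from 250 bases before to 50 bases after the RefSeq start, on GRCm38.p6, at chr12:108850879-108851178 (plus strand) for Slc25a47 and chr12:108835827-108836126 (minus strand) for Slc25a29.
Slc25a47 promoter: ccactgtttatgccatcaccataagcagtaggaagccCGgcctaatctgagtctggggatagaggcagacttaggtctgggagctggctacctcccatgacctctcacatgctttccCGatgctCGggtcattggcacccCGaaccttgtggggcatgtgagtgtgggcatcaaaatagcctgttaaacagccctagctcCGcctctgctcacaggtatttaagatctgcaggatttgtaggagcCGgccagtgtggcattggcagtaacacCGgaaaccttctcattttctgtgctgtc
Slc25a29 promoter: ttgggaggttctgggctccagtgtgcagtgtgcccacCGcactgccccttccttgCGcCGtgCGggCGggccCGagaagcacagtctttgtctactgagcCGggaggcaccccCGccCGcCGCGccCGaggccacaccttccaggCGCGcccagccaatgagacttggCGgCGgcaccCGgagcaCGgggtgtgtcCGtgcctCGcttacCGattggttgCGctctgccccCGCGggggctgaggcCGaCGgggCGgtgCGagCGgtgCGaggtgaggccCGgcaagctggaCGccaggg
The Slc25a47 window held 7 CG dinucleotides and the Slc25a29 window 32, so the gene with more RNA had fewer. The window of Slc25a5, the other gene of very high level, held 18. RefSeq windows were matched for 36 of 47 carriers. Their median was 17 CG dinucleotides, against 7 over all 32851 windows, and 7 of 36 carriers (19.4%) had fewer than 10, against 56.5% of all windows.

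The lowest carriers came from several role groups. In all, 15 carriers missed the filter used for ratios below, a mean of 1 TPM and 10 counts. Of these, Slc25a18, Slc25a41 and Slc25a54 had 0 counts in both libraries. Since a count of 0 allows up to 3 counts, Slc25a18 could be at up to 0.00824 TPM in replicate 1 and 0.0128 TPM in replicate 2, by counting error alone. Slc25a41 could be at up to 0.00964 and 0.0149 TPM, and Slc25a54 at up to 0.00688 and 0.0107 TPM. Slc25a31 and Slc25a43 had fewer than 10 counts in either library. Slc25a54 lies 6461 bases from Slc25a24 on chromosome 3, and Slc25a43 lies 18448 bases from Slc25a5 on the X chromosome.

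The paralog pairs shared 62.0% to 77.4% of aligned coding bases. Slc25a39 and Slc25a40 were the least alike of the 10 pairs and Slc25a5 and Slc25a4 the most. In each of the 10 pairs the same gene had the higher TPM in both libraries, though by counts Slc25a37 was above Slc25a28. Within the uncoupling protein-like pair, which shared 72.2%, Slc25a30 stood 5.89 and 3.41 times above Slc25a14, or 25.8 and 9.38 times over coding transcripts. The pyrimidine carriers, at 66.2% identity, had the ratio 1.73 and 1.96, Slc25a33 over Slc25a36, or 2.94 and 4.46 over coding transcripts. The only named Slc25 pseudogene, Slc25a5-ps, had 3 and 4 counts.

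Carrier levels differed between the libraries about as much as those of all genes. The ratio is log2 of replicate 1 over replicate 2, from TMM-scaled CPM (counts scaled to the library total) plus 0.5, and a positive value is higher in replicate 1. Of 47 carriers, 32 passed the filter. Their median ratio was -0.0057, against 0.037 over all 7702 genes that passed it, with 16 above and 16 below 0. The median absolute ratio was 0.22, against 0.20 over all genes. On the TPM scale replicate 2 was higher, with a median of 1.47 times replicate 1 in the carriers and 1.42 times over all genes. None of the 32 carriers was past 2-fold in either direction, where 1.57% of all genes were past it higher in replicate 1 and 0.792% higher in replicate 2. Past 1.5-fold, 1 carrier was higher in replicate 1 and 2 were higher in replicate 2, where 4.93% and 3.52% of all genes were. Scaled by the spike-in RNAs instead, 0 carriers were past 1.5-fold higher in replicate 1 and 7 of 32 higher in replicate 2. On that scale 15.3% of all genes were past 1.5-fold either way. The median of all genes then lay at -0.24, so directions here are relative to the TMM scale.

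Slc25a21 was the carrier past 1.5-fold higher in replicate 1, with 944 and 571 counts, or 11.9 and 7.63 TMM-scaled CPM, and a log2 ratio of 0.60. Slc25a32 (0.46), Slc25a45 (0.45), Slc25a17 (0.43) and Slc25a30 (0.41) came next. Higher in replicate 2 was Slc25a23, with 2747 and 4069 counts, or 34.5 and 54.4 TMM-scaled CPM, and a log2 ratio of -0.65. Slc25a22 followed at -0.62, with 20.6 and 32.1 TMM-scaled CPM, and then Slc25a42 (-0.52) and Slc25a33 (-0.48). Of the highest genes, Slc25a5 was at 0.10, Slc25a47 at -0.057, Slc25a3 at -0.31, Slc25a15 at -0.12, Slc25a39 at -0.32 and Slc25a13 at 0.23. Slc25a23 overlaps Crb3 on the opposite strand over 759 bases, and whether counting used strand is not given in the sources used here. Such overlap is not particular to Slc25a23, as 17 of the 47 carriers overlap a gene on the opposite strand.

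**Figure D3:**
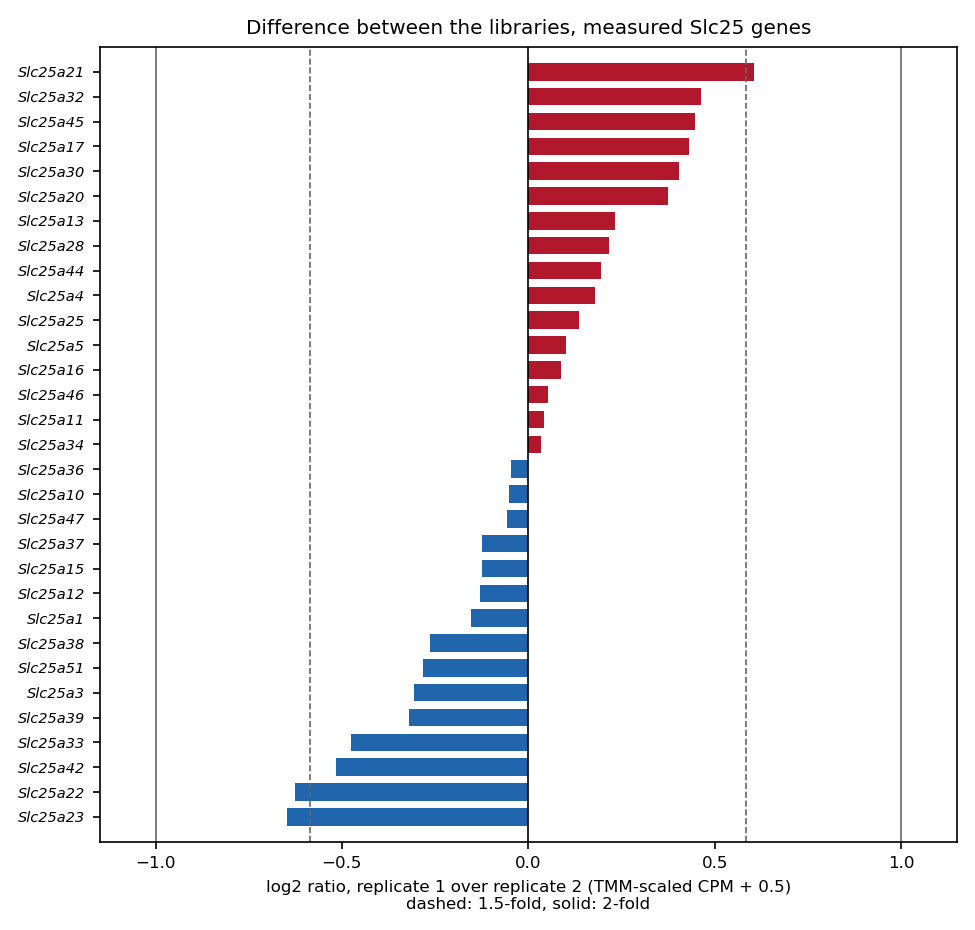
Log2 ratio of replicate 1 over replicate 2 for carriers that passed the filter, red bars higher in replicate 1 and blue bars higher in replicate 2. Only Slc25a21, Slc25a22 and Slc25a23 pass the dashed lines at 1.5-fold, and no bar reaches the solid lines at 2-fold.

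The ratio was lower in genes of higher GC content of the leading transcript, among carriers and among all genes. Pearson's r was -0.46 and Spearman's rho -0.47 over the 32 carriers, and -0.30 and -0.41 over 7653 genes. These are descriptions across genes of the same pair of libraries, and genes are not independent replicates. The 5 carriers highest in replicate 1 had GC contents of 42.9% (Slc25a21), 41.2% (Slc25a32), 53.3% (Slc25a45), 45.1% (Slc25a17) and 45.4% (Slc25a30). GC content was read from GENCODE M21 sequences, while counts were made on GENCODE M4. Lengths of the leading coding transcript were equal in the 2 releases for 34 of 47 carriers. They were 5905 and 2945 bases for Slc25a32, 3588 and 1706 for Slc25a30, and 1724 and 1667 for Slc25a17, M21 first. At the other end the values were 57.02% for Slc25a23, 56.99% for Slc25a22, 56.2% for Slc25a42 and 53.8% for Slc25a33. With the median of each GC bin taken off, a step chosen after seeing the data, 0 carriers were past 1.5-fold. Of all genes, 7.11% were. The ratios so corrected were -0.53 for Slc25a23, -0.51 for Slc25a22 and 0.42 for Slc25a21, against -0.65, -0.62 and 0.60 before, and 0.50 for Slc25a45, then the highest. Markers moved too: the 10 measured genes of pericentral hepatocytes were all higher in replicate 1, with a median ratio of 0.67, and those of periportal hepatocytes had a median of -0.23. The part of GC content, zonation and the acinar, muscle and adrenal markers in the carrier ratios was not tested.

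**Figure D4:**
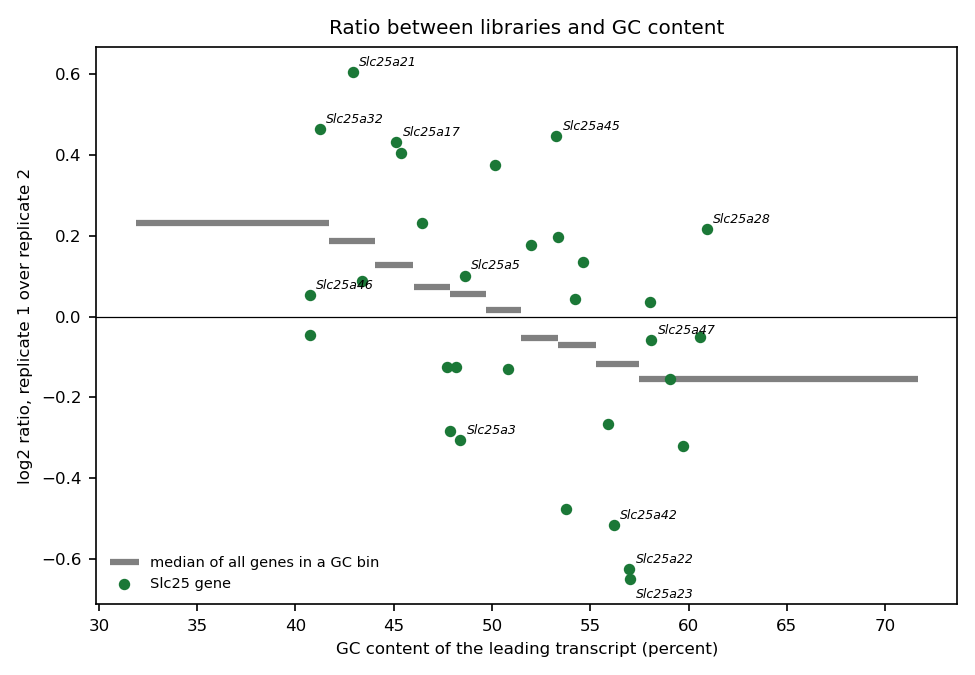
Log2 ratio of replicate 1 over replicate 2 against GC content in percent, green points for carriers and grey bars for the median of all genes in each of 10 GC bins. The grey bars step down from 0.23 in the lowest bin to -0.15 in the highest, and the carriers scatter around them: Slc25a45 lies 0.50 and Slc25a21 0.42 above its bar, and Slc25a23 (-0.53) and Slc25a22 (-0.51) lie below theirs.

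Most carriers were read mainly as a coding transcript, about as often as protein-coding genes as a whole. The leading transcript was the same in both libraries in 28 of 29 carriers at 1 TPM or more (96.6%), against 93.5% of 6664 protein-coding genes. It held a median of 84.5% of its gene in replicate 1 and 90.01% in replicate 2, against 85.1% and 84.5% over protein-coding genes. For 9 of the 29, a single transcript is annotated. The leading transcript was not of the protein-coding class in both libraries for 1 carrier (3.45%), against 4.20% of the protein-coding genes. In either library this held for 2 carriers (6.90%), against 6.77%. The leading transcript changed only in Slc25a4, whose coding transcript held 52.7% and 37.2%, and whose transcript with a retained intron held 47.3% and 62.8%. These shares are per length. By counts the coding transcript had 417 and 261 and the other 232 and 274, with posterior SDs of 17.25 and 14.52 for each. By counts the transcripts were thus nearly tied in replicate 2.

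Slc25a12 was read mostly as a transcript annotated for nonsense-mediated decay, which held 54.1% and 58.4%, against 23.3% and 17.9% for its coding transcript. This split is per length: by counts the long coding transcript had 676 and 585, and the other 556 and 682. Slc25a42 held 35.9% and 37.2% in transcripts with retained introns, and Slc25a22 22.2% and 22.1%. Slc25a37, below 1 TPM in replicate 1, was divided between its coding transcript (51.3% and 40.6%) and a retained intron (48.7% and 58.2%). Total RNA contains unspliced molecules, so a retained intron in the annotation cannot be told apart here from RNA not yet spliced. In Slc25a51 the shares of the near-identical coding transcripts were uncertain, with a posterior SD of 700 counts in replicate 1 and 534 in replicate 2 for the leading one, and are not compared.

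**Figure D5:**
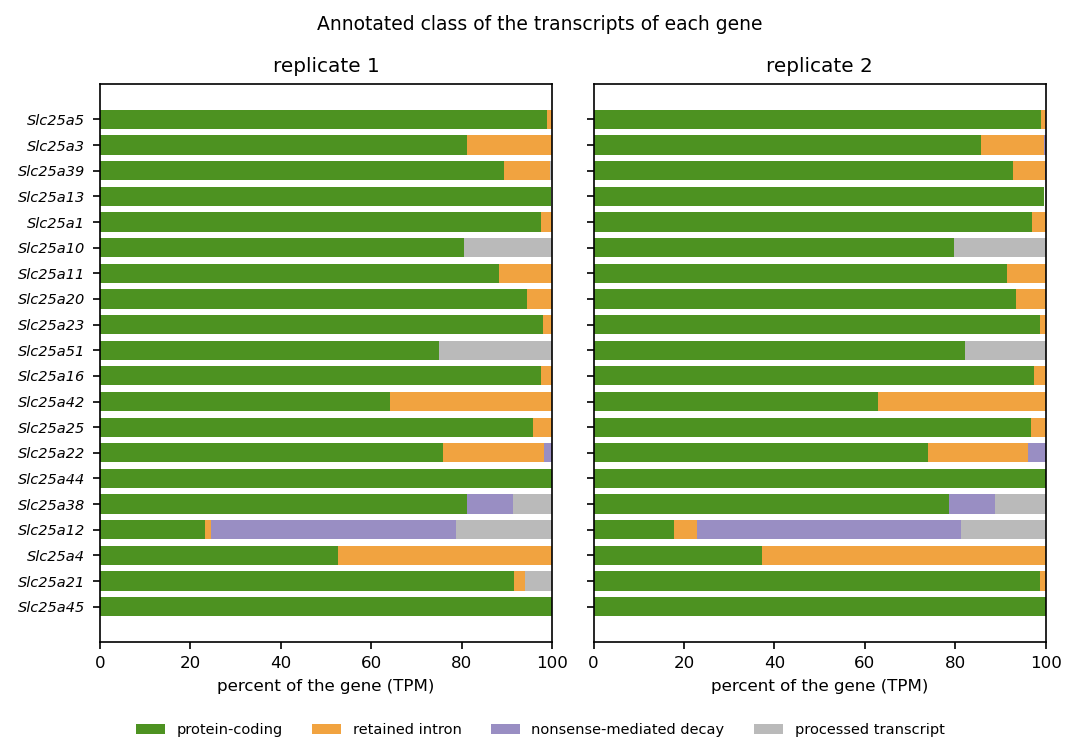
Share of each gene held by transcripts of each annotated class, in percent of the gene's TPM, for the 20 carriers at 1 TPM or more in both libraries with more than 1 annotated transcript, replicate 1 left and replicate 2 right. Slc25a4 and Slc25a12 stand out as the genes with less than 60% in coding transcripts in both libraries.

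Slc25a3 is known for alternative exons, of which IIIA is used in heart and skeletal muscle and IIIB in other tissues. Transcripts with exon IIIB held 80.2% and 85.5% of the gene, from 8592 and 10505 counts. The transcript with exon IIIA held 0.95% and 0.13%, from 81.9 and 12.8 counts with posterior SDs of 17.2 and 12.7. The estimate for this transcript, which is not a count of reads on the exon, was above its own SD in replicate 1. It was about equal to it in replicate 2. Skeletal muscle markers had 2037 counts in replicate 1 and 18 in replicate 2. Their part in the count of the transcript with exon IIIA was not tested. The exons are shown because they differ between these transcripts. They lie at chr10:91122207-91122331 for IIIA and chr10:91121922-91122043 for IIIB, minus strand, GENCODE M21 on GRCm38, and capitals mark bases that differ in the alignment or have no partner.
Slc25a3 exon IIIA: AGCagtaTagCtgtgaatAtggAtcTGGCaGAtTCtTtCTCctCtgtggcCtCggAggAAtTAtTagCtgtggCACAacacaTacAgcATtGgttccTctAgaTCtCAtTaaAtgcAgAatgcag
Slc25a3 exon IIIB: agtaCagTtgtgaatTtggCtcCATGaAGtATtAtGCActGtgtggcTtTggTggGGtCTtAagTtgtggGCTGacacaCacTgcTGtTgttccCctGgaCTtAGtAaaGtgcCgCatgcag
The exons were 125 and 122 bases long, and 77 of 122 aligned bases were identical (63.1%). Each exon holds 1 signature match of the carrier, so either choice keeps the first of the signatures found in this gene.

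Genes that work with the carriers were read beside them, from lists of partner genes. For comparison with the detected numbers, 31% of all protein-coding genes were at 1 TPM or more in both libraries. All 6 urea cycle genes were at 1 TPM or more in both libraries, with a median ratio of -0.18, beside -0.12 for the ornithine carrier Slc25a15. Cps1 was at 399 and 608 TPM, Ass1 at 336 and 655 TPM and Arg1 at 249 and 328 TPM. All 6 genes of the malate-aspartate and glycerol phosphate shuttles were detected, with a median ratio of -0.016, beside 0.23 for Slc25a13 and 0.043 for Slc25a11. All 6 genes of citrate use and lipogenesis were detected, with a median of 0.37. Of these, 3 (Me1, Elovl6 and Acacb) were past 1.5-fold higher in replicate 1, where 4.93% of all genes were. Acly, which splits exported citrate and was the highest of the list at 22.4 and 41.0 TPM, had a ratio of -0.28, and the citrate carrier Slc25a1 had -0.15. Of 5 genes of carnitine acyl transfer 4 were detected, with a median of -0.20 and Crat at -0.87, beside 0.37 for the carrier Slc25a20.

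The import machinery that inserts carriers into the inner membrane had 11 of 13 genes detected by the same threshold and a median ratio of 0.044. Other inner membrane transporters had 14 of 16 and a median of 0.073. The mitochondrial pyruvate carrier subunits Mpc1 and Mpc2, which are no Slc25 genes, were at 83.1 and 104 TPM for Mpc1 and 34.0 and 41.9 TPM for Mpc2, so Mpc1 was in the range of Slc25a5 and Slc25a47. The outer membrane channels had 3 of 3 and 0.063, heme synthesis 9 of 9 and -0.026, one-carbon and methyl metabolism 7 of 8 and -0.069, and mitochondrial biogenesis factors 5 of 7 and -0.0003. The median over all 7702 genes was 0.037, and 31% of all protein-coding genes were detected. The lists were chosen for their part in mitochondria or liver metabolism, so the detected numbers are only a description.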

How the data were processed

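The authors quantified total RNA-seq of 2 liver libraries against mm10 with GENCODE M4, per the notes deposited with each library. Not given in the sources used here are the aligner, the quantifier and the use of strand. Deposited expected counts are estimated, unnormalised numbers of fragments, per the file headers. Deposited TPM is scaled to length and to a total over all features, spike-ins included, and was rescaled here without spike-ins to 1000000. Deposited FPKM was used only as a detection threshold. The share of a transcript in its gene is a deposited percent. Deposited signal columns that bound intervals of TPM and FPKM were not used.

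Symbols and coordinates come from GENCODE M21 of the same assembly (42462 identifiers matched, 884 did not). Expected counts were rounded for TMM factors from edgeR 4.0.16 (0.950 for replicate 1, 1.05 for replicate 2) in R 4.3.3, and for DESeq2 1.42.0 as an alternative. The ratio was tested on simulated data with known changes. Ratios used genes with a mean of 1 TPM and 10 counts; the pseudocount of 0.5 understates differences of low genes. Other steps used Python 3.11.15, pandas 2.3.3, scipy 1.17.1 and biopython 1.88. Identity within pairs is of coding sequences, since no protein table was used here. Intervals and floors cover counting error only.

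The members and lists were chosen with earlier results of these data known. Any member could be named; values are given for the 15 highest, the paralog pairs, the 5 largest ratios each way and members with 0 counts, and a few others of each role, except that 1 member, counted in all totals, is not reported here. From the lists of partner genes, only genes among the 3 highest or with large ratios were named. Alternatives were the detection threshold, the denominator, counts for TPM, scaling, pseudocount, filter and each library alone.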

Additional observations from a re-analysis of the deposited data

How the results depend on the processing

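Detection gave 29 carriers, and 36 to 42 under a threshold of 0.1 TPM, 10 counts, protein-coding TPM or FPKM, and 29 to 32 with 1 library left out. The family's share of 0.313% of protein-coding TPM was 0.0450% over all endogenous TPM and 0.343% without mitochondrially encoded genes, since the denominator changes, and ranged from 0.295% to 0.331% with 1 library left out. The leading gene's 21.9% was 13.4% by counts, which are not scaled to length, and 20.8% to 23.0% with 1 library left out. The 5 highest genes' 61.2% was 52.9% by counts, 62.9% with protein-coding transcripts only, and 60.8% to 61.6% with 1 library left out. The median ratio of -0.0057 was -0.28 under spike-in scaling and -0.55 from deposited TPM, where the median of all genes was -0.24 and -0.50. It was -0.045 with no filter (all genes -0.0065), -0.057 at a mean of 10 TPM (11 carriers; all genes 0.11) and 0.023 after GC correction (all genes 0), added with the values in view. Carriers past 2-fold numbered 6 of 32 from deposited TPM, all higher in replicate 2, where 8.62% of all genes were past it either way. They numbered 0 under the other settings, where 2.09% to 3.50% of all genes were past it. Carriers past 1.5-fold numbered 7 of 32 under spike-in scaling (all genes 15.3%) and 16 of 32 from deposited TPM (all genes 41.3%). At a mean of 10 TPM they numbered 1 of 11 (all genes 11.2%). After GC correction they numbered 0 of 32 (all genes 7.11%), with Slc25a23 at -0.53 and Slc25a22 at -0.51. Summing only coding transcripts, also chosen after seeing the data, raised the ratio within 5 of the 8 pairs with counts in both genes beyond the spread between libraries and left the direction of all 8. The leading transcript was the same in 10 of 10 carriers at 10 TPM or more. Where no construction shows it, the cause was not tested. No paired analysis was possible because both libraries form 1 group. With 2 libraries and a shared donor identifier, the SDs may be technical, and differences near 0 counts were not detectable at this depth.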
